A study of Mus musculus with 69 samples.

Results

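Mediator is a large complex that carries signals from transcription factors bound at enhancers to RNA polymerase II at promoters. Its head and middle modules contact the polymerase, its tail receives many of the activators, MED14 holds these modules together, and a separable kinase module built around CDK8 or CDK19 binds the core reversibly and blocks its contact with the polymerase. In ESCs Mediator is abundant at the enhancers and promoters of pluripotency genes, where it works together with cohesin. The genes of this complex were taken from the count table by name, as every gene called Med followed by a number, with or without a final l, together with Cdk8, Cdk19 and Ccnc. This rule gave 33 genes of the 16263 in the table, and all 33 passed the filter on low counts that left 14061 genes for testing.

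The cells were J1 mouse ESCs of strain background 129S4/SvJae, grown on feeder cells and then without feeders before harvest. In the clones Mut18 and Mut43, CRISPR-Cas9 editing of both alleles of H3f3a and H3f3b replaced lysine 27 of the histone variant H3.3 with arginine (H3.3K27R), so that H3.3 could no longer be acetylated at this residue, while the canonical H3 histones kept their lysine. mRNA-seq and ATAC-seq were each performed on 2 libraries of wild-type (WT) cells, 2 of Mut18 and 2 of Mut43, and the study asked whether transcription and open chromatin depend on this acetylation. Each mutant line is 1 clone, so effects of the mutation and of clone isolation cannot be told apart where both clones differ from WT.

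The libraries were of nearly equal depth, with 14992756 to 15143998 counts, and TMM factors lay between 0.986 and 1.02. All 8 ESC markers examined were detected in each library, with summed normalized counts of 44846 to 47291 in WT and 51167 to 54070 in the mutants. Within this sum Pou5f1 (12092 to 12814 in WT and 10006.5 to 10618 in the mutants) and Utf1 (3200 to 3600 and 2876 to 3133) were lower in the mutants. Sox2, Nanog, Esrrb, Klf4, Dppa5a and Zfp42 were higher, with Zfp42 at 7710 to 8154 and 12262 to 13930. Of the other cell types, 8 feeder fibroblast markers summed to 2935 to 4155 in WT and 1886 to 2522 in the mutants. Most of this was Col1a1 (1797 to 1986 in WT and 1234 to 1664 in the mutants), Col1a2 (510 to 769 and 328 to 537) and Col3a1 (257 to 843 and 98.4 to 149), and Lum alone was at 0 in some libraries. Col1a2, Lum and Thy1 overlapped between WT and the mutants. The 4 primitive endoderm markers summed to 322 to 355 in WT and 187 to 236 in the mutants, the 3 trophoblast markers to 257 to 261 and 136 to 184, and the 3 epiblast and mesendoderm markers to 548 to 555 and 82.4 to 123. Dab2, Cdx2, Eomes, Fgf5 and T were lower in the mutants, and Gata6, Sox17 and Mixl1 overlapped. Against their sums, Gata4 (37.2 to 43.9 in WT and 53.1 to 63.9 in the mutants) and Elf5 (0.98 and 3.00 to 5.06) were higher. The part of these shifts in the values of the Mediator genes was not tested, and in bulk libraries fewer cells of a type and less RNA per cell cannot be told apart. H3f3a was lower in the mutants, with 9121 ± 486 normalized counts (SD, n = 4) beside 10723 ± 302 (SD, n = 2) in WT cells (edgeR adjusted p = 0.00016). H3f3b, on chromosome 11, had 12656 ± 956 beside 12388 ± 13.5 (edgeR adjusted p = 0.637). Its clones lay on opposite sides of WT (12378 and 12397.5), with 11654.5 and 12026 for Mut18 and 13556 and 13386 for Mut43. Counts per gene do not show the edited codon, so they check the amount of H3.3 mRNA and not the edit.

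Before the values, 4 promoters show the letters in front of Mediator genes. These windows of 200 bases run 5′ to 3′ up to the RefSeq start site on GRCm38.p6, and they were chosen because they hold no annotated exon and belong to the upregulated Med19 and Med26, to the downregulated Med27, and to Med11, which shares a motif with Med27 that few promoters hold. Capitals mark matches on either strand to CCGGAAG (the ETS motif), CCAAT (NF-Y), GGGCGG (Sp1) and the THAP11 motif.
Med19, chr2:84678202-84678401, plus strand: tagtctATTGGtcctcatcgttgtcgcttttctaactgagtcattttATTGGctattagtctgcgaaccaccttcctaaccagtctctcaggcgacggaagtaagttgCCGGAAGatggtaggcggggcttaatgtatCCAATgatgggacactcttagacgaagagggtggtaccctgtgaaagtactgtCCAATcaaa
Med26, chr8:72548311-72548510, minus strand: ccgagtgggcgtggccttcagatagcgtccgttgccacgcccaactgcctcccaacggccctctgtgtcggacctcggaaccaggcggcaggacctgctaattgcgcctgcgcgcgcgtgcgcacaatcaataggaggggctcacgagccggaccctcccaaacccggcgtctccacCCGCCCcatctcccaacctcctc
Med27, chr2:29346610-29346809, plus strand: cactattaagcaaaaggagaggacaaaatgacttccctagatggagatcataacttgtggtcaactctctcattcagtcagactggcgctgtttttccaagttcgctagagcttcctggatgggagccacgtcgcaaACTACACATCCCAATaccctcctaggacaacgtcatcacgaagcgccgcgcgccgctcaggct
Med11, chr11:70451718-70451917, plus strand: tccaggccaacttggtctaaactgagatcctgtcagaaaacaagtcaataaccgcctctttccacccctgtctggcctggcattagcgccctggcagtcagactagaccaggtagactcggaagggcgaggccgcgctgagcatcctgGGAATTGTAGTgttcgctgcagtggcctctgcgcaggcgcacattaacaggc

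The Med19 window holds 4 matches to CCAAT, in both orientations, around the ETS match. In Med27 the THAP11 match and the CCAAT match share 1 base and read as a single run of capitals, and Med11 holds the THAP11 letters on the other strand. RefSeq promoters were found for 28 of the 33 genes, and Cdk19, Med8, Med23, Med24 and Med30 were not matched. Within 250 bases upstream of the start, GGGCGG was in 18 of the 28 (64.3%) and in 32.9% of 27025 mouse promoters. These 27025 are 1 promoter for each RefSeq gene, expressed here or not, while the members are all expressed, so the sets are unlike. CCAAT was in 11 (39.3%, against 34.5%), CCGGAAG in 4 (14.3%, against 7.1%) and the THAP11 motif in 2, Med11 and Med27 (7.1%, against 2.0%). TATAAA was in 3, Med7, Med16 and Med28 (10.7%, against 13.0%), TGACGTCA was in 1, Med21 (3.6%, against 1.6%), and the NRF1 motif and the YY1 letters AAGATGGCG were in none (0.8% and 0.6% of all promoters). These are matches of letters in a window and do not show that a factor binds there.

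In WT cells the level of the Mediator genes, in normalized counts per kb of exon, ranged from 5.79 for Med12l to 560.5 for Med6. A normalized count is the read count scaled by TMM to a common library size, and division by exon length allows levels of different genes to be set side by side. Med6, a head subunit, was at 529 and 592 in the WT libraries, above Med17, the central subunit of the head, at 443 and 434. Next came Med30 at 377 and 399 and Med19 at 375 and 400, whose levels overlapped and could not be ordered. At the low end, Cdk19 was at 46.6 in both WT libraries and Med15, a tail subunit, at 58.5 and 57.8, while Cdk8 was at 177 and 174. Med12l stood apart, with 5.5 and 6.0 in WT and 2.9 to 4.4 in the mutants, and all other members were at 46.6 or more in every library. The order depends in part on gene length. With the longest transcript in place of the union of all exons the 2 orders had a Spearman rho of 0.878 over the 33 genes, Med6, Cdk19 and Med12l kept their places, and Med15 moved from place 31 to 20 and Cdk8 from 18 to 6.

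**Figure D1:**
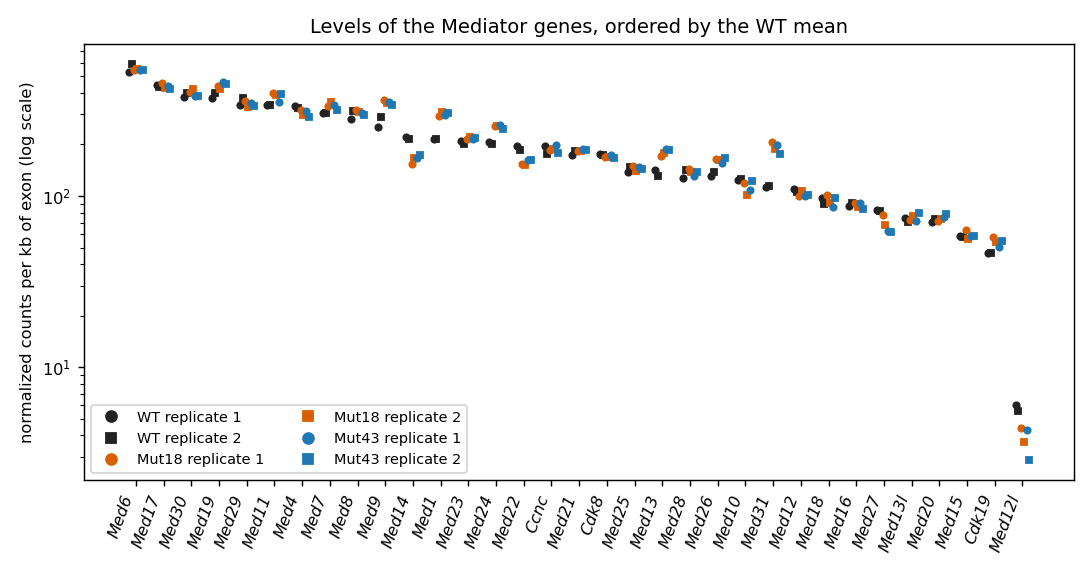
Normalized counts per kb of exon (log scale) of the 33 Mediator genes in each library, ordered by the WT mean. Med6 is highest and Med12l is far below all others in every library, and the Med31 points of the 4 mutant libraries (175 to 206) lie above those of WT (113 and 114).

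Between WT (n = 2) and the mutants (n = 4), 14 of the 33 Mediator genes differed at an adjusted p under 0.05 (42.4%) in edgeR's quasi-likelihood test, Benjamini-Hochberg adjusted, where 48.0% of all tested genes did. This test treats the 4 mutant libraries as separate units, with no term for the clone each came from. Upregulated were 9 members (27.3%, against 23.5% of all genes): Med31, Med1, Med13, Med9, Med24, Med26, Cdk19, Med19 and Med7. Downregulated were 5 (15.2%, against 24.5%): Med12l, Med14, Med27, Med22 and Med4. With library size alone as scaling, in place of TMM, the split was 7 upregulated and 6 downregulated, and by DESeq2 it was 7 and 3. The upregulated share was near the background and the downregulated share below it, a difference that was not tested, and the median log2 fold change of the members was 0.03, beside -0.004 over all tested genes. None passed the additional 2-fold threshold, which 8.93% of all tested genes did (7.52% in Mut18 and 10.3% in Mut43 against WT, with none of the members), and the 95% confidence intervals of all 33 members lay within 1 log2 unit of no change. For the 19 members that were not called, the intervals reached from -0.31 to 0.34. Of the 14 called members, 8 kept their call under all 14 other settings of the test (Med1, Med9, Med13, Med14, Med22, Med24, Med26 and Med31). The downregulated count was 2 without WT replicate 1 and 3 without WT replicate 2, and 3 by DESeq2. Without WT replicate 1, Med12l and Med19 were no longer called (edgeR adjusted p = 0.074 and 0.095), and Med27 was lost without either WT library and by DESeq2 (adjusted p up to 0.075).

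**Figure D2:**
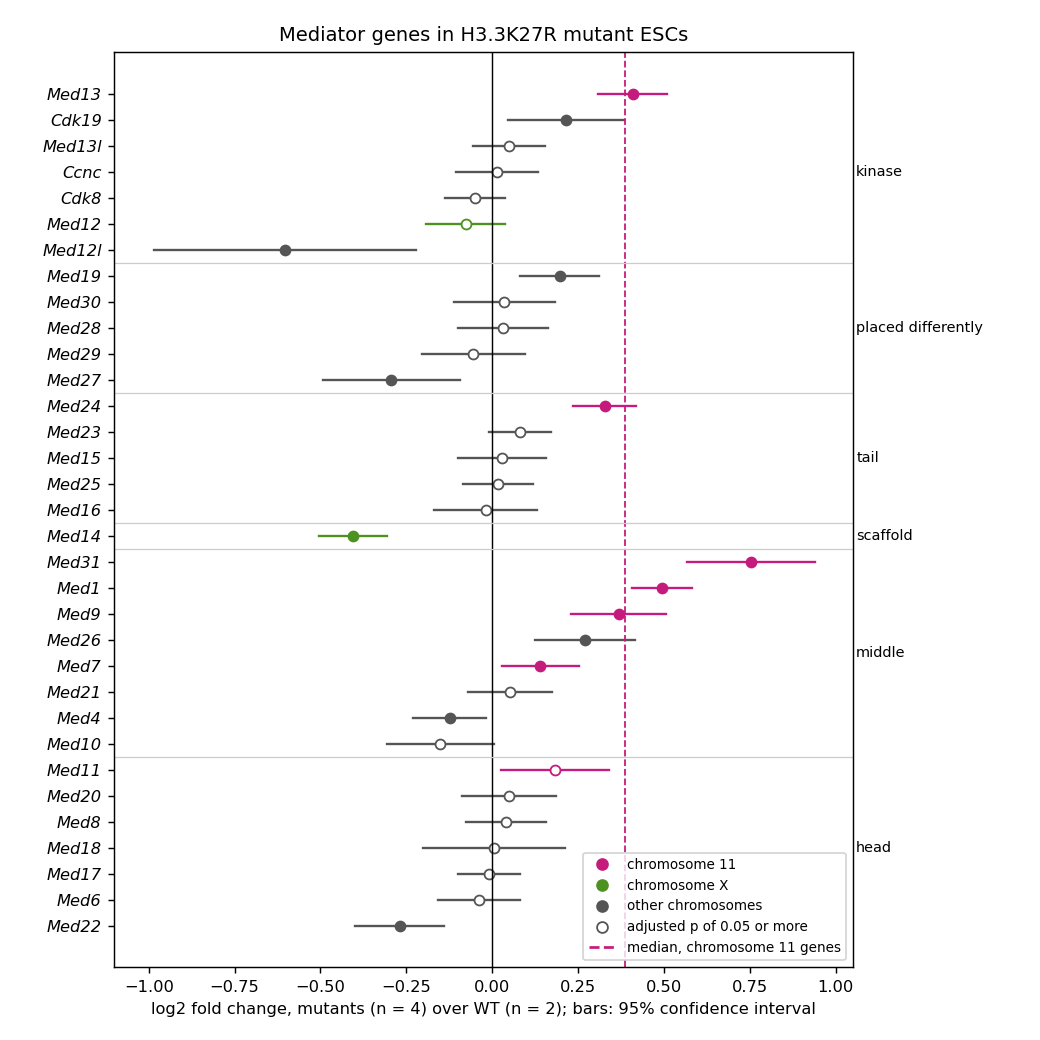
Log2 fold change of each Mediator gene, mutants (n = 4) over WT (n = 2), grouped by module, with bars for the 95% confidence interval, filled points for an adjusted p under 0.05 and colours for the chromosome. The middle module holds 5 of the 9 upregulated genes, the 7 genes of chromosome 11 all lie above 0, and the dashed line marks the median of all tested genes of that chromosome, 0.39.

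The middle module, which lies between head and tail and reaches the polymerase, had 5 of 8 genes upregulated and 1 downregulated, where 23.5% and 24.5% of all tested genes were, and a median log2 fold change of 0.21. Of the 5 upregulated genes 4 (Med1, Med7, Med9 and Med31) lie on chromosome 11, where 67.1% of the tested genes were upregulated with a median of 0.39, and of its 4 genes elsewhere 1 was upregulated and 1 downregulated. The largest change was in Med31 (chr11:72211724-72215592 on GRCm38, minus strand), which forms the knob of this module, with 196 and 198 normalized counts in WT cells, 356 and 327 for Mut18 and 344 and 302 for Mut43. All 4 mutant libraries were above both WT libraries, and the mean rose from 197 ± 1.23 (SD, n = 2) to 332 ± 23.4 (SD, n = 4). This was 1.69-fold, or 0.75 on the log2 scale, with a 95% confidence interval of 0.57 to 0.94 (edgeR adjusted p = 6.5e-07). An antisense transcript, 4930563E22Rik, shares 26.3% of the exon bases of Med31 and also rose, from 20.5 ± 0.0556 to 32.1 ± 4.30 normalized counts (log2 0.64, edgeR adjusted p = 0.041). It is not stated whether the counting used strand, so its reads and those of Med31 cannot be told apart over these bases.

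Med1 (chr11:98152154-98193293, minus strand), the subunit through which many nuclear receptors reach Mediator, was at 1874 and 1875 normalized counts in the WT libraries, 2573 and 2713 in those of Mut18, and 2600.1 and 2677 in those of Mut43. The groups were far apart relative to their spread, with a log2 fold change of 0.49 (SE 0.042, edgeR adjusted p = 7.4e-09) or 1.41-fold. Med9, which pairs with Med4 in this module, was at 488 and 556 in WT cells, 694 and 671 for Mut18 and 678 and 653 for Mut43 (log2 0.37, SE 0.066, edgeR adjusted p = 0.00011). Med26, a subunit found in only part of Mediator and known to bring in elongation factors, was at 393 and 412 in the WT libraries, 491 and 484 in those of Mut18, and 465 and 500.3 in those of Mut43 (log2 0.27, SE 0.070, edgeR adjusted p = 0.0032). In Med9 and Med26 too the groups did not overlap. An antisense gene that is not in the count table, Gm17435, covers 12.7% of the exon bases of Med26.

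The other members of the middle module moved little. Med7, which pairs with Med21 in the hinge of the module, was at 875 in both WT libraries and 910.3 to 1013 in the mutants (log2 0.14, SE 0.054, edgeR adjusted p = 0.036), its call was lost under 7 of 14 other settings, and a lincRNA outside the count table, 2310031A07Rik, covers 21.2% of its exon bases. Med4 was at 1126 and 1099 in WT and 968 to 1068 in the mutants (log2 -0.12, SE 0.050, edgeR adjusted p = 0.048), and its call was lost under 10 of 14. Med10, the largest negative log2 fold change of the module at -0.15, was at 558 and 564 in WT cells, 534 and 452 for Mut18 and 488 and 546 for Mut43. It did not pass the test (edgeR adjusted p = 0.10), and 92.8% of its exon bases lie under a lincRNA on the opposite strand, Gm26819. Med21 was at 612 and 643 in WT and 644 to 660.4 in the mutants, with a log2 fold change of 0.05 that did not pass the test.

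Med14 (chrX:12675369-12762073, minus strand), the scaffold that joins head, middle and tail, was downregulated. It was at 1949.8 and 1886 normalized counts in the WT libraries, 1345 and 1465 in those of Mut18, and 1470.5 and 1516 in those of Mut43, so that the highest mutant library stayed well below the lower WT library. The mean fell from 1918 ± 45.3 (SD, n = 2) to 0.756 of that level by the fit, or -0.40 on the log2 scale, with a 95% confidence interval of -0.50 to -0.31 (edgeR adjusted p = 5.5e-07).

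In the head module, which contacts the polymerase and TFIIH, 1 of 7 genes was downregulated, none was upregulated and the median log2 fold change was 0.01. Med22 (chr2:26905262-26910677, minus strand), which pairs with Med11 in a helical bundle of the head, was at 704 and 671 in WT cells, 556 and 549 for Mut18 and 589 and 588 for Mut43. Mutant and WT libraries did not overlap, and the log2 fold change was -0.27 (SE 0.061, edgeR adjusted p = 0.0011). Its partner Med11 had the largest positive value of the module, with 356 and 355 in the WT libraries, 418 and 409.6 in those of Mut18, and 373 and 414 in those of Mut43 (log2 0.18, SE 0.075), and narrowly missed the threshold at an edgeR adjusted p of 0.052. Med6, Med8, Med17, Med18 and Med20 had log2 fold changes from -0.04 to 0.05, and in each of them WT and mutant libraries overlapped.

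In the tail, where many activators bind, 1 of 5 genes was upregulated and none was downregulated. Med24 (chr11:98704591-98729435, minus strand) was at 1348 and 1310.4 in WT cells, 1675 and 1671 for Mut18 and 1708 and 1618 for Mut43, with every mutant library above WT (log2 0.33, SE 0.044, edgeR adjusted p = 3.4e-06). Med23, the target of ELK1 in growth factor signalling, was at 1405 and 1354 in WT and 1444 to 1474 in the mutants. These groups did not overlap either, but the difference did not pass the test (log2 0.08, SE 0.043, edgeR adjusted p = 0.13). Med16, the lowest value of the tail at -0.02, was at 408 and 424 in WT and 391 to 425 in the mutants. Med15 and Med25, which bind activators, had log2 fold changes of 0.03 and 0.02 with overlapping libraries.

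Of the 5 subunits that published structures place in different modules, Med19 was upregulated and Med27 downregulated. Med19 was at 772 and 823 in the WT libraries, 902 and 871 in those of Mut18, and 953 and 931 in those of Mut43 (log2 0.20, SE 0.056, edgeR adjusted p = 0.0064). Its exons overlap those of Zdhhc5 on the opposite strand over 12.0% of their bases, and Zdhhc5 had a log2 fold change of -0.004. Med27 was at 274 and 272 in WT cells, 256 and 226 for Mut18 and 206 and 203 for Mut43, with the 2 Mut43 libraries the lowest (log2 -0.29, SE 0.095, edgeR adjusted p = 0.015). Med28, Med29 and Med30 had log2 fold changes of 0.03, -0.06 and 0.04, with WT and mutant libraries overlapping.

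In the kinase module, 2 of 7 genes were upregulated and 1 was downregulated. The kinase Cdk8 was at 1735 and 1708 normalized counts in the WT libraries, 1651 and 1655 in those of Mut18, and 1699.5 and 1644 in those of Mut43. All mutant libraries were slightly below WT, but the difference did not pass the test (log2 -0.05, SE 0.041, edgeR adjusted p = 0.33). Its paralog Cdk19, which takes the place of Cdk8 in part of the complexes, was at 272 and 273 in WT cells, 336 and 315 for Mut18 and 295 and 319 for Mut43 (log2 0.21, SE 0.081, edgeR adjusted p = 0.033), and this call was lost under 6 of 14 other settings. Ccnc, which encodes their partner cyclin C, was at 1003 and 899.7 in WT and 911 to 1019 in the mutants, with a log2 fold change of 0.01 and a 95% confidence interval from -0.11 to 0.13.

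Med13 (chr11:86267033-86357602, minus strand), the subunit that tethers the kinase module to the core, was at 1534 and 1426 normalized counts in the WT libraries, 1861 and 1946 in those of Mut18, and 2047.5 and 2007 in those of Mut43. It rose in every mutant library (log2 0.41, SE 0.049, edgeR adjusted p = 6.7e-07), and Brip1os, on the opposite strand over 7.38% of its exon bases, did not pass the test (log2 -0.13). Its paralog Med13l was at 1148 and 1089.9 in WT cells, 1120.4 and 1185 for Mut18 and 1105 and 1221 for Mut43, with overlapping groups and a log2 fold change of 0.05 (edgeR adjusted p = 0.45). Med12, the subunit that activates the kinase, was at 849 and 809 in the WT libraries, 769 and 822 in those of Mut18, and 769 and 781 in those of Mut43, again overlapping (log2 -0.08, edgeR adjusted p = 0.26). Its paralog Med12l (chr3:59005825-59318682, plus strand) was at 77.1 and 70.6 in WT cells, 56.1 and 46.5 for Mut18 and 55.0 and 36.5 for Mut43, the largest decrease of any member (log2 -0.60, 95% confidence interval -0.99 to -0.22, edgeR adjusted p = 0.0098). Igsf10 lies on the opposite strand and shares 15.3% of the exon bases of Med12l, and it fell from 216 ± 17.4 to 113 ± 10.1 normalized counts (log2 -0.94, edgeR adjusted p = 5.1e-07). As with Med31, reads of Igsf10 and Med12l cannot be told apart over these bases.

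**Figure D3:**
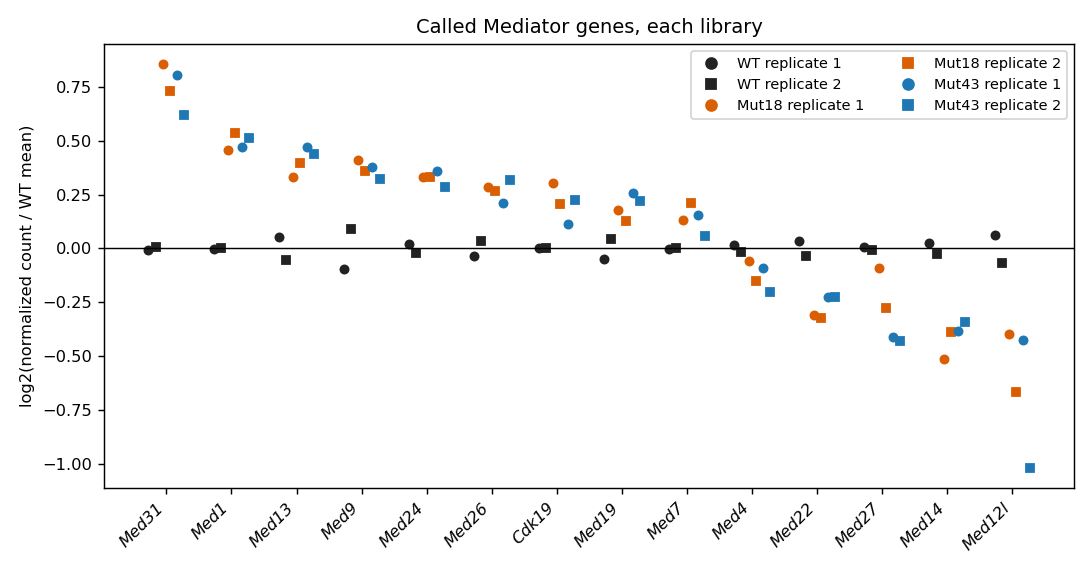
Log2 of the normalized count of each library over the WT mean, for the 14 Mediator genes called between mutants and WT, ordered by the mean of the mutants. Each symbol is 1 library, and in all 14 genes the 4 mutant libraries lie on one side of both WT libraries, with Med12l and Med27 the most spread among mutants.

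The 3 paralog pairs of the kinase module allowed a ratio within each library, which needs no normalization between libraries. The log2 ratio of Cdk19 to Cdk8 counts was -2.67 and -2.65 in the WT libraries, -2.29 and -2.39 in those of Mut18, and -2.52 and -2.37 in those of Mut43, a difference of 0.26 between the means (two-sided exact permutation p = 0.067). Per kb of the union of exons, Cdk19 made up 20.9% and 21.2% of the Cdk8 and Cdk19 sum in WT and 22.6% to 25.5% in the mutants. Per kb of the longest transcript, a length chosen for this share after the data were seen, it made up 9.53% and 9.67% in WT and 10.4% to 12.0% in the mutants. The ratio of Med13l to Med13 was -0.42 and -0.39 in WT cells, -0.73 and -0.71 for Mut18 and -0.89 and -0.72 for Mut43, a difference of -0.36 (two-sided exact permutation p = 0.067). With 15 ways to split 6 libraries into 2 and 4, 0.067 is the smallest p this design allows, so neither ratio could reach 0.05. The splits also treat the 2 libraries of a clone as separate units. The ratio of Med12l to Med12 was -3.45 and -3.51 in the WT libraries, -3.77 and -4.13 in those of Mut18, and -3.80 and -4.40 in those of Mut43, a difference of -0.54 (two-sided exact permutation p = 0.13). Adjusted over the 3 ratios tested, the p-values were 0.10, 0.10 and 0.13. In all 3 pairs the mutant libraries lay on one side of WT. Med13 lies on chromosome 11, whose tested genes had a median log2 fold change of 0.39, and Med13l lies on chromosome 5. The part of that chromosome-wide shift in the ratio of Med13l to Med13 was not tested.

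**Figure D4:**
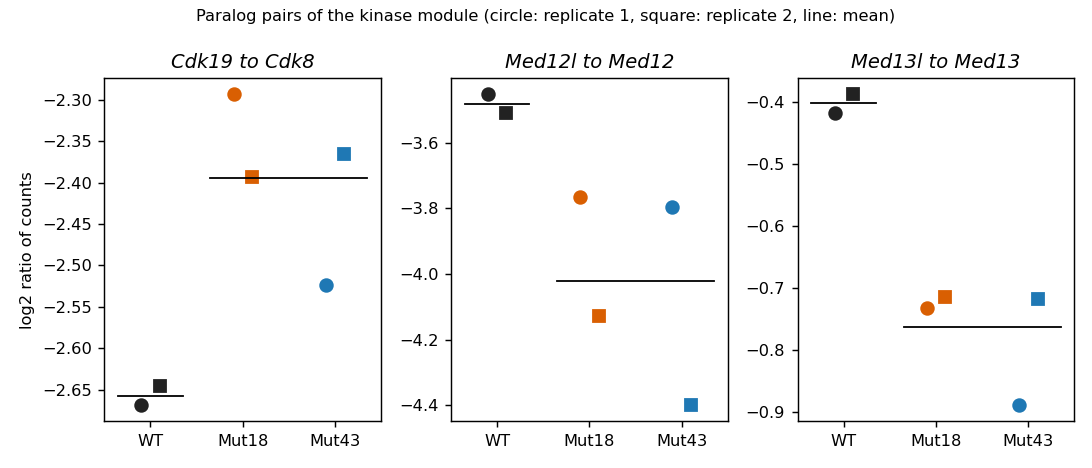
Log2 ratio of counts (vertical axis, a separate scale for each pair) of Cdk19 to Cdk8, Med12l to Med12 and Med13l to Med13 in each library, with lines at the means of WT (n = 2) and of all mutant libraries (n = 4). In each pair the 4 mutant libraries lie on one side of WT, above it for Cdk19 and below it for Med12l and Med13l.

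The members were also described by chromosome. On chromosome 11 lie 7 members, Med1, Med7, Med9, Med11, Med13, Med24 and Med31, of which 6 were upregulated and none was downregulated, with a median log2 fold change of 0.37. The 1184 tested genes of this chromosome had a median of 0.39 (0.38 in Mut18 and 0.38 in Mut43), or 1.31-fold, and 67.1% of them were called upregulated and 7.09% downregulated. Among the genes of its chromosome Med31 was at percentile 85.9, Med1 at 68.1, Med13 at 54.6, Med9 at 47.2, Med24 at 41.6, Med11 at 26.2 and Med7 at 22.6. Med31 thus exceeded the chromosome median by 0.37 and Med1 by 0.11 on the log2 scale, while Med7 was below it by as much as 0.25. The part of this chromosome-wide shift in the values of the 7 genes was not tested.

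On the X chromosome, 508 tested genes had a median log2 fold change of -0.14, with 15.2% upregulated and 38.6% downregulated. Med14 was at percentile 28.9 of these genes and Med12 at 57.1. On the other chromosomes, 3 of 24 members were upregulated (Cdk19, Med19 and Med26) and 4 downregulated (Med4, Med12l, Med22 and Med27), with a median of 0.02. The 12269 tested genes there had a median of -0.02, with 19.7% upregulated and 25.6% downregulated. With chromosome 11 left out of the TMM factors, 10 members were upregulated and 4 downregulated.

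Against the same WT libraries, 12 members were called in Mut18, with 9 upregulated and 3 downregulated, where 41.3% of all genes were called (20.3% up and 21.0% down), and DESeq2 called 7 members. In Mut43 12 members were called as well, with 7 upregulated and 5 downregulated, where 46.8% of all genes were called (22.9% up and 23.9% down), and DESeq2 called 8 members. The WT libraries are shared by both comparisons, which are not independent. The log2 fold changes in Mut18 and Mut43 were 0.79 and 0.71 for Med31, 0.50 and 0.49 for Med1, 0.36 and 0.45 for Med13, and -0.45 and -0.36 for Med14. Cdk19 had 0.26 in Mut18 (edgeR adjusted p = 0.025) and 0.17 in Mut43 (edgeR adjusted p = 0.13), and Med27 had -0.18 (edgeR adjusted p = 0.14) and -0.42 (edgeR adjusted p = 0.0012).

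Tested directly against each other, the clones differed in none of the 33 members by edgeR at an adjusted p under 0.05, where 0.327% of all genes did, and in none by DESeq2. At an unadjusted p under 0.05 edgeR called 1 member, Med27, and DESeq2 called 0. Med27 was lower in Mut43 than in Mut18 by a log2 difference of -0.24 (SE 0.10), with an edgeR p of 0.027 and an adjusted p of 0.50. A difference between the clones in Cdk19 was not shown (log2 -0.09, SE 0.090, edgeR adjusted p = 0.87).

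Without any test, all 4 mutant libraries were above both WT libraries in 12 members (36.4%), where 29.4% of all tested genes were. The mutants were below WT in 7 members (21.2%), where 30.4% of all tested genes were. Besides the called genes these were Med11, Med21 and Med23 above and Cdk8 and Med10 below.

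ATAC-seq, which marks open chromatin by transposase insertion, gave a list of 63588 to 78536 peaks in each library. A peak within 500 bp of an annotated start site was present in every library for 30 of the 33 Mediator genes (beside 85.93% of 13961 tested genes with a place in the annotation). The exceptions were Med22, with a peak in 5 libraries, Med25, with a peak in 4, and Med13l, where only the peak of WT replicate 1 reached into this window. In the other 5 libraries a peak overlapping that one ended 769 to 836 bp from the nearest start site of Med13l, with 4.69 to 6.26 times the background. In these 3 genes the peaks within the window were weak, with 3.35 to 4.60 times the background, beside a median of 6.86 to 7.80 over all peaks of a library. Whether an absent peak reflects the depth of a library was not tested, since the lists carry no read numbers.

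By the mean over all 6 libraries the strongest promoter peaks were at Med8 (14.1 times the background), with 12.8 and 14.7 in WT and 13.1 to 14.8 in the mutants, and at Med23 (13.4), with 12.5 and 16.7 in WT and 12.4 to 13.5 in the mutants. Med27 (13.2) and Med6 (13.0) followed closely, and the ranges of these 4 genes overlapped. The weakest peak present in every library was at Med12l, the member with the lowest mRNA level, with 4.92 and 5.18 in WT and 5.19 to 5.57 in the mutants. At Med31, where mRNA rose most, the peak summit lay at a median of 8 bases upstream of the start site, and the peak had 11.2 and 12.0 times the background in WT cells, 10.4 and 10.9 for Mut18 and 9.86 and 10.2 for Mut43. All 4 mutant values were thus below WT, while the mRNA was above WT. At Med1 the enrichments overlapped between groups, with 8.92 and 9.73 in WT, 8.94 and 8.84 for Mut18 and 8.38 and 9.27 for Mut43. As rank percentiles within each library's own list, Med1 was at 75.7 and 73.4 in WT and 62.9 to 70.3 in the mutants. All 4 mutant ranks of Med1 were thus below WT. At Med14, whose mRNA fell, the enrichments were 7.77 and 7.96 in WT, 7.60 and 8.27 for Mut18 and 8.51 and 8.48 for Mut43. At Med26 the mutant enrichments were above WT, with 7.34 and 7.49 in WT, 8.08 and 8.25 for Mut18 and 8.86 and 9.18 for Mut43. As rank percentiles the groups overlapped at Med26, with 57.3 and 45.3 in WT and 56.4 to 69.5 in the mutants. By enrichment all mutant peaks were also above WT at Cdk8, Cdk19, Med12l, Med19 and Med30, and Med31 alone had all of them below. The median enrichment over all peaks of a library was 6.86 in WT replicate 1 and 7.46 to 7.80 in the others. Ranked within each library's own list, the 4 mutant peaks were above WT at Cdk19, Med19, Med29 and Med30. By rank the 4 mutant peaks were below WT at Med1, Med15 and Med31, and the groups overlapped at Cdk8, Med12l and Med26. The share of promoters over all genes with such a separation was not counted. Peak enrichment was computed in each library on its own and not normalized between libraries, so these values are descriptions and were not tested.

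**Figure D5:**
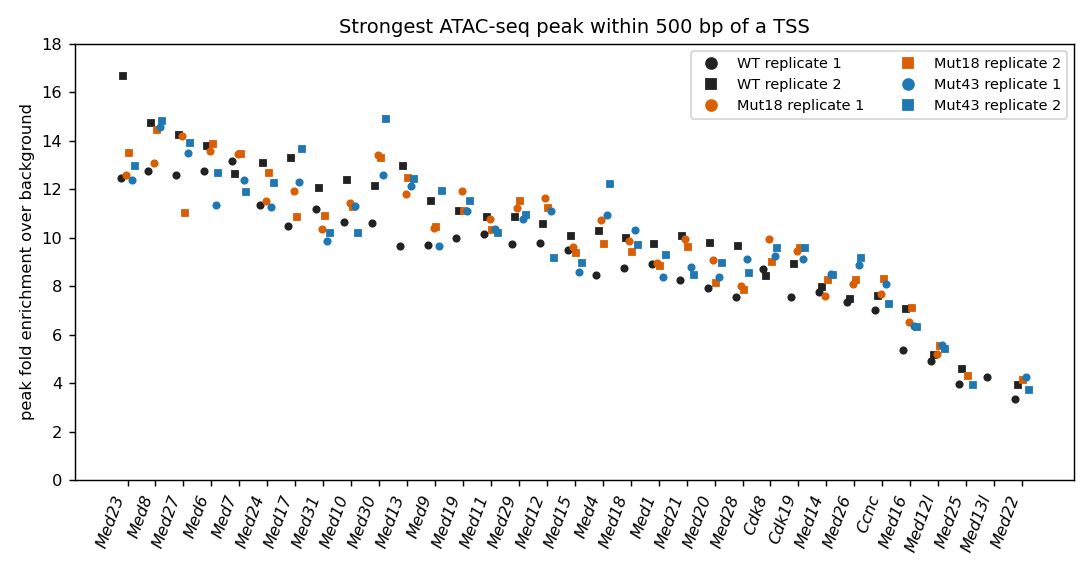
Fold enrichment over background of the strongest ATAC-seq peak within 500 bp of a start site, for each Mediator gene and library, ordered by the WT mean. Med22, Med25 and Med13l are lowest and lack a peak in this window in some libraries, and the Med31 peaks of the mutants lie below those of WT.

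Other genes of the same pathway were tested in the same fit, in which 23.5% of all tested genes were upregulated and 24.5% downregulated. Of 13 RNA polymerase II subunit genes 5 were upregulated (38.5%) and none was downregulated, with a median log2 fold change of 0.08, and 3 were called with library size alone as scaling. The largest was Polr2a, which encodes the catalytic subunit and lies on chromosome 11, at 6929 and 6751 normalized counts in WT and 8748 to 9301 in the mutants (log2 0.41, edgeR adjusted p = 2.4e-08). Of 33 general transcription factor genes 6 were upregulated (18.2%) and 3 downregulated (9.1%), with a median of 0.02, where DESeq2 called 5 in place of 9. They were led by the TFIIA gene Gtf2a1 (log2 0.35, edgeR adjusted p = 0.00019) and the TFIID gene Taf10 (log2 -0.17, edgeR adjusted p = 0.024). Of the 9 cohesin and cohesin loader genes that were counted, 2 were upregulated (22.2%) and 3 downregulated (33.3%), with a median of -0.02, and 3 in place of 5 were called without WT replicate 2. Stag2, a cohesin subunit gene on the X chromosome, fell from 3395.5 ± 6.43 to 2212 ± 135 normalized counts (log2 -0.62, edgeR adjusted p = 1.5e-09), and Rad21, which encodes the subunit that closes the cohesin ring, rose (log2 0.15, edgeR adjusted p = 0.0091).

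Of 15 elongation factor genes 7 were upregulated (46.7%, against 23.5% of all tested genes) and 2 downregulated (13.3%, against 24.5%), with a median log2 fold change of 0.14. The 3 of them on chromosome 11 (Aff4, Hexim1 and Supt4a) were all upregulated, where 67.1% of the tested genes of that chromosome were. Aff4, the scaffold of the super elongation complex, rose (log2 0.52, edgeR adjusted p = 6.8e-09) and its partner Ell2 fell (log2 -0.48, edgeR adjusted p = 6.6e-08). Of 8 activator genes whose products are known to touch Mediator 3 were upregulated (37.5%) and 1 downregulated (12.5%), with a median of 0.17 and 3 genes on chromosome 11, of which 2 were upregulated. The retinoic acid receptor gene Rara, on chromosome 11, rose (log2 0.45, edgeR adjusted p = 1.4e-06), and Smad3, which transmits Nodal and TGF-beta signals, fell (log2 -0.56, edgeR adjusted p = 3.0e-05). None of the genes in these 5 lists passed the 2-fold threshold.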

How the data were processed

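For mRNA-seq, the authors deposited raw read counts per gene symbol for 6 libraries, without normalization. For ATAC-seq, the authors deposited peaks called library by library, and each peak carries a ratio (its fold enrichment over local background) and a -log10 q. Reads had been mapped to mm10 together with the fly genome. The submitters' processing notes name Bowtie2 2.3.4.2, SAMtools, STAR, MACS2, DESeq2 and deepTools 3.3.0. The counting program, its strand setting and the annotation are not given in the sources used here. Reads shared by near-identical or overlapping genes could be split by the counting.

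Titles gave the line and replicate of each sample. The test of the counts used edgeR 4.0.16 under R 4.3.3 (filterByExpr, minimum count 10, minimum total 15, TMM, quasi-likelihood F-test, Benjamini-Hochberg adjustment over all 14061 genes tested), with the mutants pooled or with 3 groups in 1 fit. The SE of a log2 fold change was its size over the square root of F, and 95% confidence intervals used the degrees of freedom of the fit. The notes name DESeq2 for the study; here DESeq2 1.42.0 was an alternative, as were other normalizations and filters, robust dispersion (limma 3.58.1), a replicate block and leaving out each library. Ratios used a pseudocount of 0.5. Symbols were placed on the GENCODE annotation of GRCm38, the same assembly as mm10 (15644 directly, 477 by an older symbol, 142 not placed). Python 3.11.15, pandas 2.3.3, numpy 2.4.6, scipy 1.17.1 and matplotlib 3.10.9 were used for the rest. The test was also run on simulated counts with few changed genes and no difference between clones, a setting unlike these data.

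Depth was 14992756 to 15143998 counts a library. The labels give biological duplicates of each line, whose counts differed by more than counting noise (chi-square of 1.81 to 3.06 per gene), and p-values measure the spread between these libraries. With the mutants pooled, the libraries of a clone count as separate units. Replicate numbers did not pair the libraries (correlation of deviations -0.012, 0.023 and 0.004). The Mediator genes and the other lists were chosen with earlier results of these data known. Every member was named, with full values for the largest log2 fold change of each module in each direction, for members that differed between the clones or by more than 2-fold, and for the paralogs of the kinase module. Other called or overlapping genes were named with their values after these were seen. From the other lists the called gene with the largest fold change in each direction was named. ChIP-seq samples were not analysed here.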

Additional observations from a re-analysis of the deposited data

Results flagged for a closer look

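Among 66 sets of 4 mutant libraries examined for a library far from the other 3, 2 held one, where chance gives about 1 in 20. In the promoter peak of Med10, Mut43 replicate 2 was at 10.2 times the background, beside 11.4 and 11.3 in Mut18 and 11.3 in Mut43 replicate 1. Its gap to the nearest library was 0.862 of the range, above Dixon's critical value for 4 samples. In the log2 ratio of Med13l to Med13, Mut43 replicate 1 was at -0.89, beside -0.73 and -0.71 in Mut18 and -0.72 in Mut43 replicate 2, a gap of 0.902 of the range. Without this library the difference of the ratio between mutants and WT was -0.32, beside -0.36 with it.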

How the results depend on the processing

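No called Mediator gene changed direction under any of the 14 other settings of the test. DESeq2 called 7 upregulated members in place of 9 and 3 downregulated members in place of 5. It called 7 in Mut18 in place of 12, 8 in Mut43 in place of 12, and 5 general transcription factor genes in place of 9. With a 2-fold threshold added, the upregulated and downregulated counts, those of each clone and those of all 5 other lists were 0. With library size alone as scaling, the median of the members was -0.008 in place of 0.03, with -0.04 over all tested genes, and 3 polymerase subunit genes were called in place of 5. With chromosome 11 left out of the TMM factors, the median was 0.055, with 0.02 over all tested genes. Leaving out each library in turn gave 2 to 5 downregulated members, 3 to 5 cohesin genes (3 without WT replicate 2) and a median of 0.019 to 0.060 (0.060 without WT replicate 2). With the replicate block, 9 members were upregulated and 5 downregulated, and 12 were called in each clone, so the block changed none of these counts. Med11 was called under 6 settings, with an adjusted p down to 0.023 by edgeR over the settings. Members that did not pass the test changed sign where their values were near 0. With library size alone, Ccnc was at -0.027, Med15 at -0.011, Med18 at -0.034, Med25 at -0.022, Med28 at -0.0084 and Med30 at -0.0039. With chromosome 11 left out of the scaling, Med16 was at 0.0053 and Med17 at 0.015, and without a filter on low counts Med17 was at 0.00098. Leaving out each library in turn gave log2 fold changes of -0.056 to 0.096 for Ccnc, -0.0069 to 0.053 for Med15, -0.044 to 0.016 for Med16, -0.030 to 0.0080 for Med17, -0.037 to 0.060 for Med18, -0.028 to 0.074 for Med25, -0.042 to 0.12 for Med28, -0.12 to 0.022 for Med29, -0.00078 to 0.082 for Med30, -0.11 to 0.052 for Med6 and -0.036 to 0.13 for Med8. The cause of these changes was not tested. The count of members with a promoter peak in every library was 29 to 31 under other windows, thresholds and list lengths. With 2 WT libraries the WT level rests on few cultures, peak lists carry no read depth, and each mutant line is 1 clone.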

Other observations

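ATAC-seq regions, each merged from the overlapping peaks of the 6 libraries, were also counted around the Mediator genes, with distances taken from the merged region. Within the genes and 10000 bp on either side, 34 regions within 500 bp of a start site had a peak in every library and 7 in some libraries. The 34 include a region of Med13l that comes within 500 bp by the peak of WT replicate 1 alone. Farther away, 61 regions had a peak in every library, 53 were mixed, 3 had a peak in both WT libraries only, and none had a peak in all mutant libraries only. These last classes are not alike, since a mutant region had to be present in more libraries than a WT region. WT replicate 1 also had the longest list, with 78536 peaks beside 63588 to 69811 in the other libraries. The share of each class over the whole genome was not counted. The 3 regions seen only in WT were chr5:118761101-118761372 near the end of Med13l, chr10:79916841-79917103 near Med16 and chr7:28381059-28381274 near Med29 (mm10). Their genes had log2 fold changes of 0.05, -0.02 and -0.06, which did not pass the test. The depth of each library is unknown here, and its part in these counts was not tested.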
